A study of Arabidopsis thaliana with 15 samples.

Results

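The Arabidopsis genes that bring the photoreceptor phytochrome A into the nucleus, or that switch on the genes doing so, were followed by mRNA level in seedlings moved out of darkness. They are FHY1 (FAR-RED ELONGATED HYPOCOTYL 1, AT2G37678), its relative FHL (FHY1-LIKE, AT5G02200), and the transcription factors FHY3 (AT3G22170) and FAR1 (AT4G15090). These 4 genes were taken by locus identifier from the 33323 genes listed for each library, and all 4 were found. RNA came from the aerial part of wild-type Columbia-0 seedlings that had been stratified for 4 days and grown for 4 days in darkness at 22 °C on plates. The groups were L4h, illuminated for 4 h after the dark growth (white light, 100 µmol of photons per square metre each second), D4h, kept in darkness for 4 h more, and Dark, harvested at the end of the dark growth. Polysome-bound RNA was sequenced for L4h and Dark and total RNA for all 3 conditions, with 3 libraries in each of the 5 groups. None of these libraries came from a mutant or from single-wavelength light, and whole aerial parts mix all shoot cell types.

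Phytochrome A is made in the cytosol in darkness and enters the nucleus once light has converted it to its active form. It carries no strong import signal of its own: FHY1 and FHL bind the active photoreceptor, carry a nuclear localization signal, and take it along through the importin pathway. FHY3 and FAR1 are transcription factors derived from transposases that bind the FHY1 and FHL promoters and activate them, and the light-signalling factor HY5 is known to bind next to them there. This loop is best known from seedlings in far-red light, where loss of FHY1, FHY3 or FAR1 leaves the hypocotyl long.

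FHY1 and FHL moved together in these libraries, so their promoters are shown first. Each sequence is the 250 bases before the annotated start of the gene in RefSeq's TAIR10.1, read 5′ to 3′ along the gene's own strand. Capitals mark CACGCGC, the element described as bound by FHY3 and FAR1, and ACGT, the core of elements bound by HY5 and other bZIP factors.
FHY1, chr2:15802794-15803043, minus strand: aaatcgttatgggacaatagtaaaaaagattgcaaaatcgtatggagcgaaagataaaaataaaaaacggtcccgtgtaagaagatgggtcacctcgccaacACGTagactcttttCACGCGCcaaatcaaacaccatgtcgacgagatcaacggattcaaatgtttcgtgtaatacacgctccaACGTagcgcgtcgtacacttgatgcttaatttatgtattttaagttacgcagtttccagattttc
FHL, chr5:437115-437364, plus strand: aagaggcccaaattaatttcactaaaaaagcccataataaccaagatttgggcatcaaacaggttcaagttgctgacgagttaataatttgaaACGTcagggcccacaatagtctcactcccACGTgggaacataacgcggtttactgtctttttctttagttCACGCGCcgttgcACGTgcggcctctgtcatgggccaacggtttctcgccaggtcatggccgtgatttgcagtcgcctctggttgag
Each window held 1 CACGCGC, read in the direction of the gene, with its first base 134 bases before the FHY1 start and 87 bases before the FHL start. The nearest ACGT began 14 bases away from it in FHY1 and 13 bases away in FHL. FHL held 3 ACGT cores, and those at 128 and 74 bases before its start lay within the palindrome CACGTG, the G-box. FHY1 held 2 ACGT cores and no CACGTG. The windows of FHY3 and FAR1 held no CACGCGC on either strand. FAR1 held 3 ACGT cores, 1 of them within CACGTG, whereas FHY3 held no ACGT. ACGT was thus not particular to the windows of FHY1 and FHL.

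The CACGCGC element was uncommon, whereas ACGT was not. Of 27443 such windows before nuclear protein-coding genes, 290 held CACGCGC on either strand, which is 1.06%. ACGT was in 44.1% of the windows and CACGTG in 6.49%. CACGCGC and ACGT with starts at most 14 bases apart, a distance chosen after seeing these promoters, were in 27 windows, or 0.0984%. Letters in a window describe the sequence and are not evidence of binding. Among the 269 tested genes with CACGCGC in their window, 38 (14.1%) were higher and 25 (9.29%) lower in L4h than in Dark in total RNA, against 12.9% and 10.2% of all 20857 tested genes with a window. FHY1 and FHL are themselves among these 25.

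The genes lie apart from each other, with no annotated gene overlapping any of them. FHY1 spans chr2:15801418-15802793 on the minus strand and FHL chr5:437365-439019 on the plus strand in TAIR10.1, with 2 annotated transcripts each. FHY3 spans chr3:7821997-7826196 on the minus strand with 2 transcripts, and FAR1 chr4:8614060-8618173 on the plus strand with 5. The gene nearest to FAR1 ends or starts 85 bp away, the closest neighbour among the 4. Every read number deposited for these genes was whole in 15 of 15 libraries, whereas estimated fractions occur elsewhere in the tables.

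The reads in listed genes came to 60.8 to 100.9 M per library. FHY1 drew 971 to 5479 reads per library, FHY3 1301 to 9821 and FAR1 1171 to 3891. FHL drew 54 to 1835 reads, so its lowest values carry the largest counting error of the 4. The light-induced antenna gene LHCB1.3 stood at 2379 to 4902 CPM (read counts scaled to the size of the library) in L4h total RNA. In Dark total RNA it stood at 243 to 795 CPM, so these groups parted as labelled. PORA, an enzyme of dark-grown seedlings, stood at 1.24 to 7.41 CPM in L4h and 149 to 198 CPM in Dark total RNA. RBCS1A, a Rubisco small subunit gene, stood at 2496 to 4931 CPM in L4h and 345 to 751 CPM in Dark total RNA. In polysome-bound RNA, RBCS1A had 6600 CPM in Dark replicate 1, above L4h replicates 2 and 3 with 5845 and 4652 CPM. LHCB1.3 and PORA did not overlap between L4h and Dark polysome-bound RNA. D4h replicate 1 stood apart, with 7310.2 CPM of LHCB1.3 and 1741 CPM of PORA, where D4h replicates 2 and 3 had 804 and 732 CPM of LHCB1.3 and 228 and 219 CPM of PORA. RBCS1A stood at 3662 CPM in D4h replicate 1, within the L4h total range, and at 660 and 591 CPM in D4h replicates 2 and 3. Between D4h replicates 2 and 3 the median gap per gene was 0.0547 log2 units, and in the other replicate pairs it was 0.117 to 0.548. The labels do not tell whether these libraries are independent, and they do not say that replicates came from separate seedling batches, so p-values measure only the spread between these libraries.

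**Figure D1:**
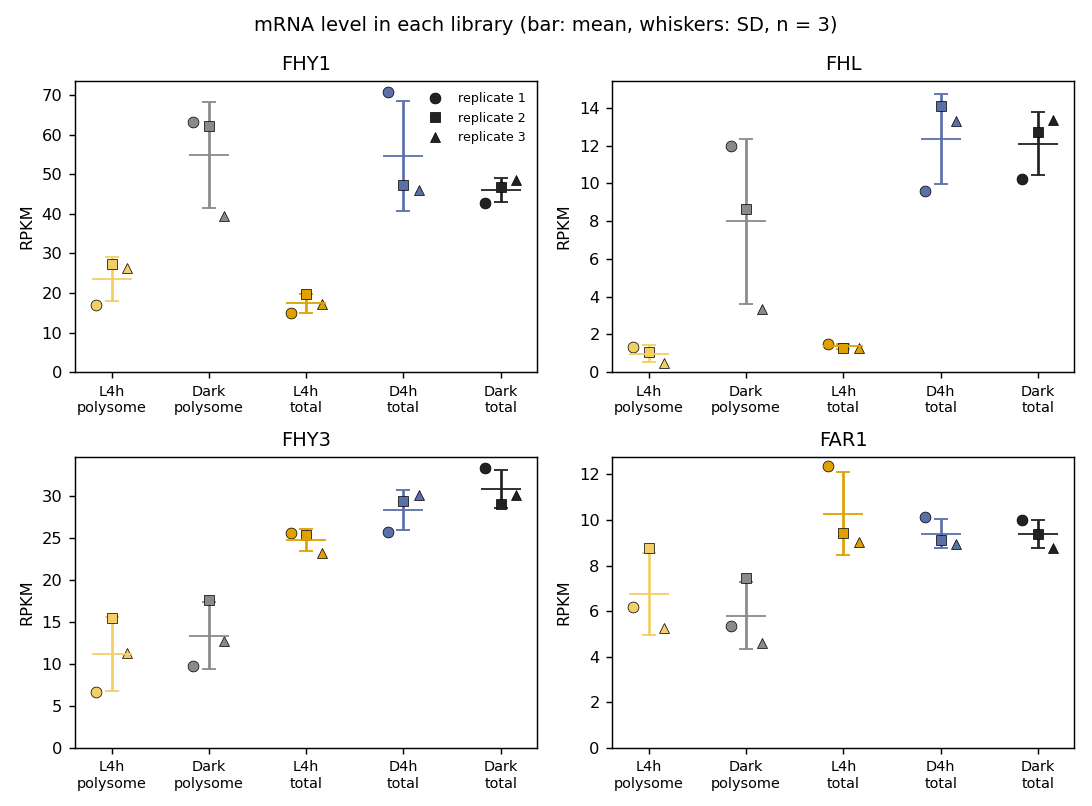
Level of FHY1, FHL, FHY3 and FAR1 in RPKM (y axis) in each library of the 5 groups (x axis), with symbols for the replicate number, a bar for the mean and whiskers for the SD (n = 3). FHY1 and FHL are low in all 6 light libraries, whereas FHY3 and FAR1 part by kind of RNA more than by light on this scale.

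Light and darkness set the FHY1 and FHL levels apart. RPKM (reads per kilobase of gene, scaled to all reads of the library) allows levels of different genes to be set side by side. FHY1 averaged 23.5 ± 5.64 RPKM in L4h polysome-bound RNA and 17.3 ± 2.32 RPKM in L4h total RNA (SD, n = 3 each), which overlapped and lay below every dark library. Its dark groups lay higher, at 54.9 ± 13.4 RPKM in Dark polysome-bound RNA, 54.8 ± 13.9 RPKM in D4h total RNA and 46.0 ± 3.06 RPKM in Dark total RNA, with overlap between neighbours. FHL followed the same division at a lower level. It averaged 0.964 ± 0.448 RPKM in L4h polysome-bound RNA and 1.36 ± 0.127 RPKM in L4h total RNA, which overlapped and lay below all dark libraries. The dark groups of FHL overlapped too, at 7.99 ± 4.36 RPKM in Dark polysome-bound RNA, 12.3 ± 2.38 RPKM in D4h total RNA and 12.1 ± 1.65 RPKM in Dark total RNA.

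In RPKM, the levels of the transcription factors were ordered by the kind of RNA. FHY3 averaged 11.1 ± 4.42 RPKM in L4h and 13.3 ± 4.00 RPKM in Dark polysome-bound RNA, which overlapped and lay below every total RNA library. In total RNA it averaged 24.7 ± 1.31 RPKM in L4h, just below all libraries of the groups next in order, D4h with 28.3 ± 2.35 RPKM and Dark with 30.8 ± 2.23 RPKM, which overlapped. FAR1 averaged 6.74 ± 1.81 RPKM in L4h and 5.79 ± 1.48 RPKM in Dark polysome-bound RNA, overlapping each other and just below every total RNA library. In total RNA it had 10.3 ± 1.82 RPKM in L4h, 9.40 ± 0.621 RPKM in D4h and 9.38 ± 0.611 RPKM in Dark, all overlapping. The median gene also stood lower in polysome-bound RNA on log2(RPKM + 1), at -0.16 in L4h and -0.14 in Dark. In CPM, FAR1 reached 27.1 in L4h polysome-bound RNA and began at 26.6 in L4h total RNA, so these groups overlapped. Among genes with reads in the group, 25399 in L4h and 25511 in Dark total RNA, FHY1 lay above 72.3% in L4h and 89.2% in Dark, and FHL above 31.0% in L4h and 65.5% in Dark.

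Light for 4 h lowered both import adaptors in total RNA. FHY1 had 15.1, 19.7 and 17.3 RPKM in the L4h libraries, against 42.6, 46.8 and 48.6 RPKM in the Dark libraries. Every L4h library lay below every Dark library. FHY1 was 2.59-fold lower in L4h, a log2 change of -1.37 ± 0.17 (SE) with a 95% interval of -1.76 to -0.99 (edgeR quasi-likelihood test, adjusted p = 0.0018). FHL, the paralog with the lower level, had 1.50, 1.29 and 1.27 RPKM in L4h, against 10.2, 12.7 and 13.4 RPKM in Dark. These groups did not overlap either, and the light libraries were close to each other. FHL was 8.66-fold lower in L4h, a log2 change of -3.11 ± 0.22 with a 95% interval of -3.61 to -2.62 (adjusted p = 0.00025, edgeR). In RNA of whole aerial parts, fewer cells of a type and less RNA per cell cannot be told apart. Of the 21735 genes tested, 7.08% had a lower log2 change than FHY1 and 1.29% had a lower one than FHL.

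The activators FHY3 and FAR1 did not pass the test in that comparison. FHY3 had 25.6, 25.3 and 23.2 RPKM in L4h, against 33.3, 29.0 and 30.1 RPKM in Dark. The groups lay apart, with the highest L4h value near the lowest Dark value. Its log2 change was -0.28 ± 0.14, with an interval of -0.61 to 0.04 (adjusted p = 0.18, edgeR). With all libraries numbered 1 left out it was -0.24 at an adjusted p of 0.034, where alternatives ranged from 0.034 to 0.43. FAR1 had 12.4, 9.44 and 9.02 RPKM in L4h, against 9.99, 9.38 and 8.77 RPKM in Dark, and the groups overlapped. Its log2 change was 0.17 ± 0.17, with an interval of -0.21 to 0.55 (adjusted p = 0.49, edgeR). Thus FHY1 and FHL, 2 of the 4 genes, were lower in light and none was higher. Of all genes tested, 10.2% were lower, 12.6% were higher and 22.8% were called in either direction. With the replicate number as a block, 38.8% of genes were called, and the same members passed. In CPM, as in RPKM, groups did not overlap for 3 of the 4 genes, beside 43.9% of all genes tested.

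**Figure D2:**
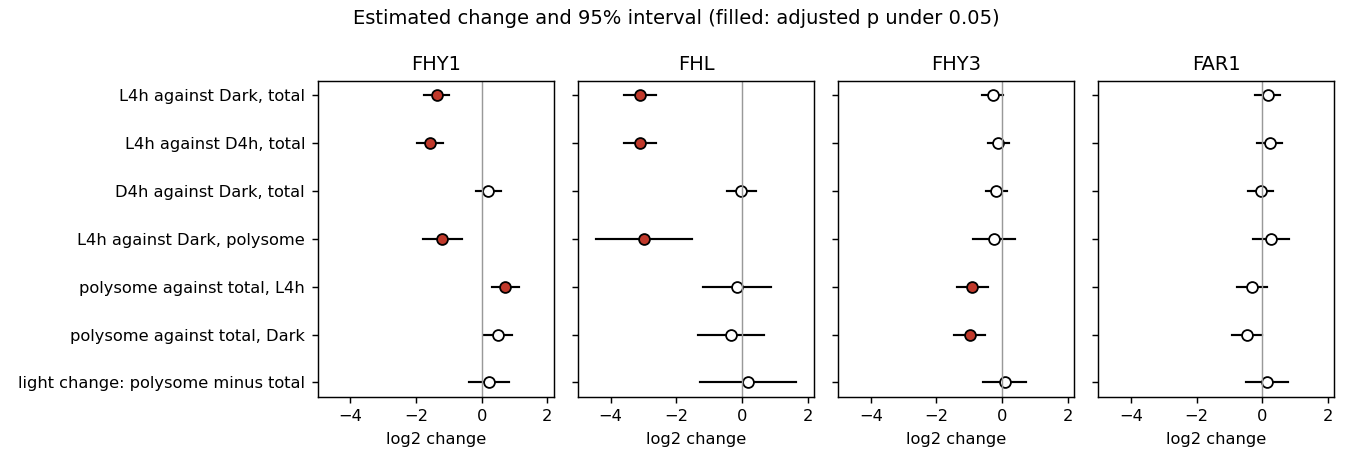
Estimated log2 change (x axis) with its 95% interval in each of the 7 comparisons (rows) for the 4 genes, filled where the adjusted p was under 0.05. FHY1 and FHL lie left of 0 wherever light is set against darkness, and FHY3 lies left of 0 where polysome-bound RNA is set against total RNA.

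Staying in darkness for 4 h more gave no call for any of the 4 genes. FHY1 had 70.8, 47.3 and 46.2 RPKM in D4h, against 42.6, 46.8 and 48.6 RPKM in Dark. Its highest value came from D4h replicate 1, the library that stood apart, and the other D4h values lay within the Dark range. The log2 change was 0.19 ± 0.17, with an interval of -0.19 to 0.57 (adjusted p = 0.85, edgeR), and 0.01 without D4h replicate 1. FHL had 9.62, 14.1 and 13.3 RPKM in D4h, against 10.2, 12.7 and 13.4 RPKM in Dark, and here D4h replicate 1 was the lowest. The log2 changes were -0.01 for FHL (interval -0.47 to 0.44), -0.17 for FHY3 (-0.50 to 0.15) and -0.05 for FAR1 (-0.43 to 0.33), all overlapping between groups. In CPM, groups did not overlap for 0 of the 4 genes, beside 12.2% of all genes tested. Of all 21735 genes tested, 0.0% were called by edgeR, 822 had an unadjusted p under 0.05, and DESeq2 called 0.0690%. None of the 4 genes had an unadjusted p under 0.05, and DESeq2 and limma called 0 of them.

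Set against D4h, the dark control of the same age, FHY1 and FHL were again lower in light. This comparison uses the same L4h libraries. FHY1 at 15.1, 19.7 and 17.3 RPKM in L4h lay below all D4h libraries, at 70.8, 47.3 and 46.2 RPKM. It was 2.97-fold lower, a log2 change of -1.57 ± 0.17 (adjusted p = 0.0010, edgeR). Without D4h replicate 1 the change was -1.35, and with D4h replicates 2 and 3 taken as 1 library it was -1.66. FHL at 1.50, 1.29 and 1.27 RPKM in L4h also lay below all D4h libraries, at 9.62, 14.1 and 13.3 RPKM. It was 8.57-fold lower, a log2 change of -3.10 ± 0.22 (adjusted p = 0.00021, edgeR), and -3.25 without D4h replicate 1. FHY3 and FAR1 gave log2 changes of -0.11 ± 0.14 (adjusted p = 0.64) and 0.22 ± 0.17 (adjusted p = 0.41, edgeR). That makes 2 of 4 genes lower and none higher, beside 7.49% of all tested genes lower, 6.92% higher and 14.4% called in either direction. In CPM, groups did not overlap for 2 of the 4 genes, beside 35.0% of all genes. In RPKM the FHY3 groups did not overlap either.

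FHL fell further than FHY1, which moved the balance of the adaptors. Within a library, the FHY1 to FHL ratio of RPKM needs no scaling between libraries. It was 10.0, 15.3 and 13.6 in L4h total RNA, 7.37, 3.36 and 3.47 in D4h, and 4.16, 3.68 and 3.64 in Dark. The L4h libraries lay above all the others, with D4h replicate 1 the highest of the dark libraries. The geometric mean was 12.8 in L4h and 3.82 in Dark, a 3.34-fold difference (two-sided exact permutation test, p = 0.1, the smallest that 3 against 3 libraries can give). Against the D4h mean of 4.41 the difference was 2.89-fold (exact p = 0.1). In D4h the ratio was 1.16-fold that of Dark (exact p = 1), with overlap. FHY1 thus made up 92.6% ± 1.52 of the summed FHY1 and FHL level in L4h, 80.9% ± 6.18 in D4h and 79.2% ± 1.22 in Dark (SD, n = 3 each).

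The FHY3 to FAR1 ratio moved less. It was 2.07, 2.68 and 2.57 in L4h, 2.54, 3.21 and 3.35 in D4h, and 3.33, 3.09 and 3.43 in Dark total RNA. All L4h libraries lay below all Dark libraries, and L4h and D4h overlapped. The geometric mean in L4h was 0.739 of that in Dark (exact permutation p = 0.1, the smallest possible) and 0.806 of that in D4h (exact p = 0.3), and that of D4h was 0.917 of Dark (exact p = 0.6). In polysome-bound RNA the mean ratio was 1.59 in L4h and 2.28 in Dark, 0.698 as large (exact p = 0.2), with overlap. Within libraries of the same number it was lower in L4h in all 3 pairs, at 1.07, 1.76 and 2.15 in L4h against 1.81, 2.37 and 2.77 in Dark (exact permutation p over pairs = 0.25, the smallest that 3 pairs can give).

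**Figure D3:**
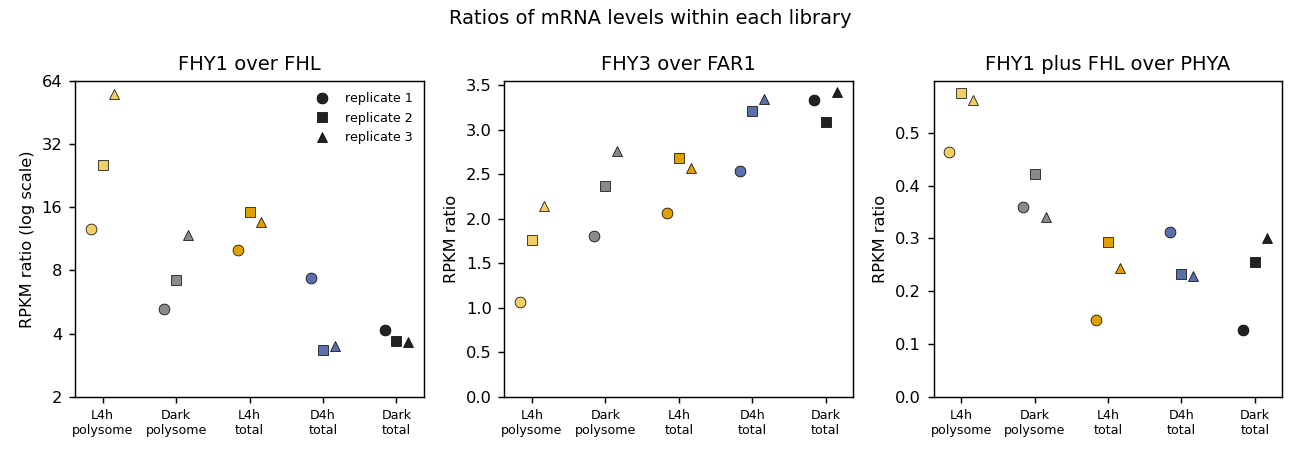
Ratios of RPKM within each library (y axes) by group (x axis) for FHY1 over FHL (log scale), FHY3 over FAR1, and the sum of FHY1 and FHL over PHYA, with symbols for the replicate number. FHY1 over FHL is higher in L4h than in Dark in both kinds of RNA, and its spread is widest in L4h polysome-bound RNA, from 12.6 to 55.3.

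Polysome-bound RNA, the mRNA attached to several ribosomes, showed the same fall of FHY1 and FHL in light. FHY1 had 17.0, 27.3 and 26.2 RPKM in the L4h libraries, against 63.1, 62.2 and 39.4 RPKM in the Dark libraries. The groups did not overlap, and Dark replicate 3 was the lowest of the dark libraries. FHY1 was 2.29-fold lower in L4h, a log2 change of -1.20 ± 0.25 with an interval of -1.79 to -0.61 (adjusted p = 0.028, edgeR). FHL had 1.35, 1.07 and 0.474 RPKM in L4h, against 12.0, 8.65 and 3.34 RPKM in Dark. The groups did not overlap, while replicate 3 was the lowest and replicate 1 the highest in both. FHL was 7.89-fold lower in L4h, a log2 change of -2.98 ± 0.62 with an interval of -4.43 to -1.53 (adjusted p = 0.027, edgeR). In CPM, as in RPKM, groups did not overlap for 2 of the 4 genes, beside 30.8% of all genes tested.

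Both polysome calls were close to the threshold. FHY1 passed it no longer without Dark replicate 2 (adjusted p = 0.10) or without L4h replicate 1 (0.074), 2 (0.11) or 3 (0.064), and FHL no longer without Dark replicate 2 (0.080) or L4h replicate 2 (0.11) or 3 (0.067, all edgeR). With the replicate number as a block the adjusted p was 0.0090 for FHY1 and 0.00023 for FHL (edgeR). The labels do not say that same-numbered libraries are pairs. FHY3 gave a log2 change of -0.24 ± 0.27 (adjusted p = 0.65) and FAR1 one of 0.27 ± 0.23 (adjusted p = 0.54, edgeR), both with overlapping groups. So 2 of 4 genes fell and none rose, beside 5.01% of the 20975 tested genes that fell, 5.5% that rose and 10.5% called in either direction, or 43.2% with the block. The FHY1 to FHL ratio was 12.6, 25.6 and 55.3 in L4h, against 5.26, 7.19 and 11.8 in Dark. Its geometric mean was 26.1 in L4h and 7.64 in Dark, a 3.41-fold difference without overlap (exact permutation p = 0.1, the smallest possible).

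The 4 genes differed in how their polysome-bound level stood to their total level. FHY1 was 1.65-fold higher in polysome-bound than in total RNA in L4h, a log2 difference of 0.72 ± 0.19 (adjusted p = 0.023, edgeR on scaled counts), and gave 0.50 ± 0.19 in Dark (adjusted p = 0.088). The L4h call was lost without any one of 5 of the 6 L4h libraries, with an adjusted p of up to 0.097, and with limma on log2(RPKM + 1), where the difference was 0.40 (adjusted p = 0.25). On that scale the median of all genes stood at -0.16, against 0.02 on the scaled counts. In CPM the ratio of libraries with the same number was 1.62, 1.50 and 1.85 in L4h and 1.82, 1.41 and 1.05 in Dark, above 1 in all 6. FHL gave log2 differences of -0.16 ± 0.47 in L4h (adjusted p = 0.85) and -0.34 ± 0.46 in Dark (adjusted p = 0.65, edgeR). With a replicate block within each kind of RNA FHL was lower in Dark polysome-bound RNA, at a log2 difference of -0.53 (adjusted p = 0.018, edgeR). That block takes the spread between replicate numbers within each kind of RNA out of the error. Its p-value therefore does not measure how far the difference varied between replicate numbers. The FHL ratios were the most spread, at 1.29, 0.893 and 0.454 in L4h and 1.44, 0.720 and 0.325 in Dark. Libraries of the same number had similar ratios in both conditions.

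FHY3 was lower in polysome-bound than in total RNA in both conditions. Its CPM ratio was 0.370, 0.658 and 0.595 in L4h and 0.359, 0.643 and 0.548 in Dark, with replicate 1 the lowest in each. All polysome-bound libraries lay below all total RNA libraries of the same condition. The log2 difference was -0.90 ± 0.21 in L4h (1.87-fold lower, adjusted p = 0.014) and -0.98 ± 0.21 in Dark (1.98-fold lower, adjusted p = 0.011, edgeR). FAR1 gave -0.33 ± 0.21 in L4h (adjusted p = 0.30) and -0.47 ± 0.21 in Dark (adjusted p = 0.14). With the replicate block the FAR1 difference in Dark was also -0.47, at an adjusted p of 0.045, where alternatives ranged from 0.0067 to 0.32. The block within each kind of RNA gave the 0.0067 in Dark and called FAR1 in L4h as well, at -0.32 (adjusted p = 0.031, edgeR). Its p-values leave out the spread between replicate numbers within each kind of RNA. The CPM ratios of FAR1 were 0.717, 1.00 and 0.712 in L4h and 0.660, 0.839 and 0.679 in Dark.

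In CPM, polysome-bound and total RNA did not overlap for FHY1 and FHY3, 2 of the 4 genes, in L4h and for these and FAR1, 3 of the 4, in Dark, beside 40.5% and 41.7% of all genes. In RPKM, which is scaled to all reads of a library without TMM, FHY3 and FAR1 were the 2 genes without overlap in each condition, and FHY1 overlapped. In L4h, 1 of 4 genes was higher and 1 lower in polysome-bound RNA, beside 11.7% of the 21924 tested genes higher and 9.15% lower. In Dark, 1 of 4 was lower, beside 9.34% lower and 10.6% higher. With the replicate block, 32.9% of genes were called in either direction in L4h and 32.4% in Dark, in place of 20.9% and 19.9%. No change of the polysome share with light passed the test for any of the 4. The difference between the light changes of the 2 kinds of RNA was 0.22 ± 0.27 for FHY1 (interval -0.38 to 0.82), 0.18 ± 0.66 for FHL (-1.26 to 1.63), 0.08 ± 0.30 for FHY3 (-0.58 to 0.74) and 0.14 ± 0.29 for FAR1 (-0.51 to 0.79) on the log2 scale. The intervals are wide, most of all that of FHL, and a difference within them was not detectable here. None had an unadjusted p under 0.05, and edgeR called 0.0% of the 21924 genes in this test, 115 of which had an unadjusted p under 0.05, while DESeq2 called 0.0137%.

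**Figure D4:**
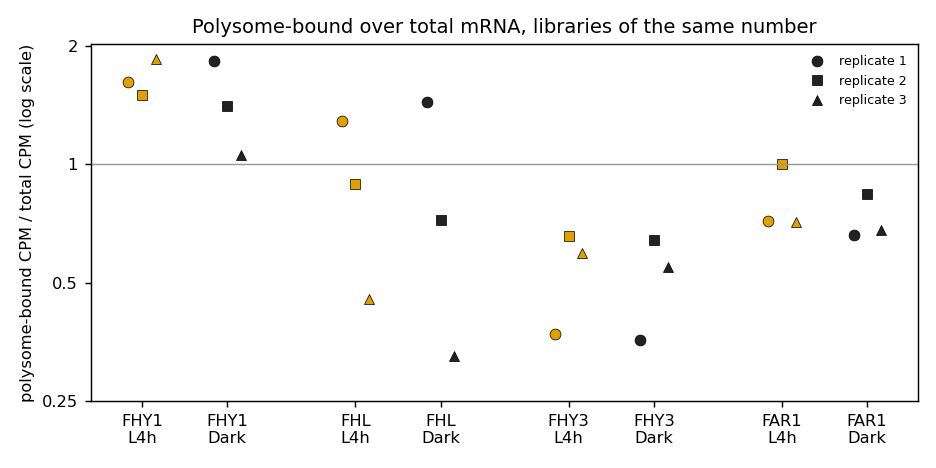
Polysome-bound over total CPM (y axis, log scale) for libraries of the same replicate number, for each gene in L4h and Dark (x axis). FHY1 lies above 1 in all 6 pairs and FHY3 below 1 in all 6, while FHL runs from 0.325 to 1.44.

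PHYA, the gene of the photoreceptor that FHY1 and FHL carry, fell as well. It had 114, 71.6 and 76.0 RPKM in L4h total RNA, 257, 264 and 259.6 RPKM in D4h, and 419.6, 233 and 206 RPKM in Dark. All L4h libraries lay below all dark ones, and Dark replicate 1 was far above the others. PHYA was 3.21-fold lower in L4h than in Dark, a log2 change of -1.68 ± 0.35 (adjusted p = 0.013), and -1.85 ± 0.32 in polysome-bound RNA (adjusted p = 0.015, edgeR). The polysome call was lost without Dark replicate 2 (adjusted p = 0.052) or L4h replicate 2 (0.082) or 3 (0.053). The sum of FHY1 and FHL over PHYA, a quantity chosen after values were seen and given as a description, was 0.227 ± 0.0756 in L4h, 0.258 ± 0.0474 in D4h and 0.227 ± 0.0906 in Dark total RNA (SD, n = 3 each). In polysome-bound RNA it ran from 0.463 to 0.576 in L4h and from 0.340 to 0.422 in Dark, with no overlap.

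HY5, the bZIP factor described as acting at the FHY1 and FHL promoters, moved the other way. It had 88.0, 122 and 84.5 RPKM in L4h, 43.0, 18.8 and 19.0 RPKM in D4h, and 19.0, 14.2 and 9.89 RPKM in Dark total RNA. The L4h libraries lay above all the others. HY5 was 6.91-fold higher in L4h than in Dark, a log2 change of 2.79 ± 0.38 (adjusted p = 0.0028), and rose by 3.09 ± 0.45 in polysome-bound RNA (adjusted p = 0.0085, edgeR). The part of HY5 in the FHY1 and FHL levels was not tested.

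Other genes of phytochrome A signalling rose more often than they fell in light. Of 18 genes in a list of photoreceptor, repressor and transcription factor genes of this pathway, 17 could be tested and LAF1 could not. In L4h against Dark in total RNA, 8 rose and 1 fell, beside 12.6% and 10.2% of all genes, with a median log2 change of 0.34 over the list and -0.02 over all genes tested. PHYA was the gene that fell. SPA3, SPA4, PKS1 and PTAC12, among those that rose, overlap other annotated genes. With the replicate block 9 rose and 3 fell, beside 38.8% of all genes called in either direction. Besides PHYA, those that fell were PP5.2 (-0.57 ± 0.10, adjusted p = 0.011) and EID1 (-0.53 ± 0.10, adjusted p = 0.014, edgeR). EID1 overlaps another annotated gene as well. These list genes other than PHYA are named after their values were seen. Against D4h, 6 rose and 1 fell, beside 6.92% and 7.49% of all genes, with a median of 0.50. The bZIP gene HYH, the closest relative of HY5, rose by 5.85 ± 1.38 on the log2 scale (adjusted p = 0.020, edgeR). Its levels were 36.9, 59.8 and 58.4 CPM in L4h, against 1.87, 0.503 and 0.379 CPM in Dark, so the fold rests on a very low Dark level. The call was lost without Dark replicate 2 (adjusted p = 0.081) or 3 (0.076). Against D4h, where HYH had 27.5 CPM in replicate 1 and no more than 1.36 CPM in replicates 2 and 3, the log2 change was 2.37 ± 1.17 and was not called (adjusted p = 0.21, edgeR). Without D4h replicate 1, the library that stood apart, it was 5.34 (adjusted p = 0.0031).

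TZP, a nuclear zinc-finger protein of phytochrome signalling, rose by 4.63 ± 0.51 (adjusted p = 0.0011). SPA1, a partner of COP1 that restrains phytochrome A signalling, rose by 2.86 ± 0.33 (adjusted p = 0.0014, edgeR). TZP stood at 154, 174 and 177 CPM in L4h, against 9.41, 6.95 and 4.15 CPM in Dark. SPA1 stood at 319, 285 and 241 CPM in L4h, against 58.4, 33.6 and 25.1 CPM in Dark. Neither gene's groups overlapped. In polysome-bound RNA 7 genes of the list rose and 1 fell, beside 5.5% and 5.01% of all genes, with a median of 0.26 over the list and -0.01 over all genes tested. Without Dark replicate 2 or L4h replicate 2, 4 genes of the list were called there in place of 8. The share of all genes called fell too, to 3.53% and 3.56% in place of 10.5%. With the replicate block 8 rose and 3 fell there, beside 43.2% of all genes called in either direction.

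Genes described as bound by FHY3 in other work, FHY1 and FHL aside, moved in both directions. All 12 passed the filter. Compared with Dark, 5 were higher and 2 lower in total RNA of L4h, beside 12.6% and 10.2% of all genes, with a median log2 change of 1.17 over the list. Without Dark replicate 2 or 3, 4 genes were called in place of 7, beside 8.05% and 9.37% of all genes in place of 22.8%. Compared with D4h, 4 were higher and 2 lower, beside 6.92% and 7.49% of all genes, and the median was 0.37. ELF4, a gene of the evening complex of the circadian clock, rose by 2.71 ± 0.33 (adjusted p = 0.0017, edgeR). It had 38.7, 43.2 and 21.0 CPM in L4h, against 3.46, 6.83 and 5.52 CPM in Dark, without overlap. The starch-debranching subunit gene DBE1, also called ISA2, rose by 2.15 ± 0.44 (adjusted p = 0.012) and the inositol phosphate synthase gene MIPS2 by 1.69 ± 0.38 (adjusted p = 0.017, edgeR). Both calls were lost without Dark replicate 2 or 3, with an adjusted p of 0.056 and 0.051 for DBE1 and 0.069 and 0.064 for MIPS2. Against D4h the change of DBE1 was 1.46 ± 0.43 (adjusted p = 0.055, edgeR), and 2.14 without D4h replicate 1 (adjusted p = 0.0032). MIPS2 also overlaps 2 other annotated genes, and without strand their reads cannot be told apart. The genes that fell, named after their values were seen, were ABI5, an abscisic acid response factor (-1.18 ± 0.22, adjusted p = 0.0090), and MIPS1 (-0.74 ± 0.21, adjusted p = 0.037). With the replicate block 7 of the 12 rose and ABI5 was the 1 that fell, beside 38.8% of all genes called in either direction. In polysome-bound RNA 5 of the 12 rose and 2 fell, beside 5.5% and 5.01% of all genes, with a median of 0.92. In place of 7 genes, 3 were called without Dark replicate 2 or 3 or L4h replicate 2. These fits called 3.53%, 5.36% and 3.56% of all genes, in that order, in place of 10.5%. There were 4 called without L4h replicate 1 or 3 or with limma on log2(RPKM + 1).

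The FAR1-related sequence family, relatives of FHY3 and FAR1, gave few calls with light. None of its 12 members was called in L4h against Dark in total RNA, beside 22.8% of all genes. Their log2 changes ran from -0.39 to 0.52 with a median of -0.04. At an unadjusted p under 0.05 there were 2, beside 8242 of all 21735 genes tested. DESeq2 called 2, and limma on RPKM called 0. With the replicate block edgeR called FRS7, at 0.55 ± 0.11 (adjusted p = 0.017), beside 38.8% of all genes called. In polysome-bound RNA edgeR without the block, DESeq2 and limma called 0 of 12, and 0 had an unadjusted p under 0.05. Of all 20975 genes tested there, edgeR without the block called 10.5%, and 5344 had an unadjusted p under 0.05. With the block edgeR called 3 there, FRS7 (0.48 ± 0.10, adjusted p = 0.015) and FRS11 (0.43 ± 0.11, adjusted p = 0.032) as higher and FRS2 (-0.34 ± 0.10, adjusted p = 0.041) as lower in L4h, beside 43.2% of all genes called. These 3 are named after their values were seen. Against total RNA, 2 of the 12 were lower in polysome-bound RNA in L4h and 2 in Dark, beside 9.15% and 9.34% of all genes, with medians of -0.54 and -0.55, where the medians of all genes were 0.02 and 0.00. In both conditions these were FRS3 and FRS12, named after their values were seen, with -0.65 ± 0.20 and -1.38 ± 0.37 in L4h (adjusted p = 0.039 and 0.022) and -0.71 ± 0.20 and -1.38 ± 0.37 in Dark (adjusted p = 0.028 and 0.023, edgeR). FRS12 overlaps another annotated gene. With the replicate block 6 of the 12 were lower in L4h and 6 in Dark, beside 32.9% and 32.4% of all genes called in either direction. With the block within each kind of RNA 8 were lower and 1 higher in each. The latter block leaves the spread between replicate numbers within each kind of RNA out of its error. It called 49.5% of all genes in L4h and 49.3% in Dark.

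The importin alpha family, receptors for nuclear localization signals, had 9 genes, of which 7 could be tested in total RNA. IMPA-4 fell by 0.44 ± 0.12 on the log2 scale in L4h against Dark (adjusted p = 0.031, edgeR), and none rose, so that 1 of 7 was lower beside 10.2% of all genes. It had 88.7, 83.5 and 84.0 CPM in L4h, against 114, 118 and 117 CPM in Dark. The groups lay apart, but the call was lost without any one of 5 of the 6 libraries (adjusted p of 0.052 to 0.11), without the filter (0.065) and with all 15 libraries in 1 fit (0.059), and IMPA-4 overlaps another annotated gene. The median of the family was 0.00. With the replicate block IMPA-1 was called too, at -0.40 ± 0.10 (adjusted p = 0.037, edgeR), beside 38.8% of all genes called. In polysome-bound RNA edgeR without the block, DESeq2 and limma called 0 of 6, and 0 had an unadjusted p under 0.05. Of all 20975 genes tested there, edgeR without the block called 10.5%, and 5344 had an unadjusted p under 0.05. With the block edgeR called 2 there, beside 43.2% of all genes. These were IMPA-4 at -0.48 ± 0.09 (adjusted p = 0.011) and IMPA-1, named after its values were seen, at -0.56 ± 0.11 (adjusted p = 0.0097). IMPA-1 overlaps another annotated gene as well.

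**Figure D5:**
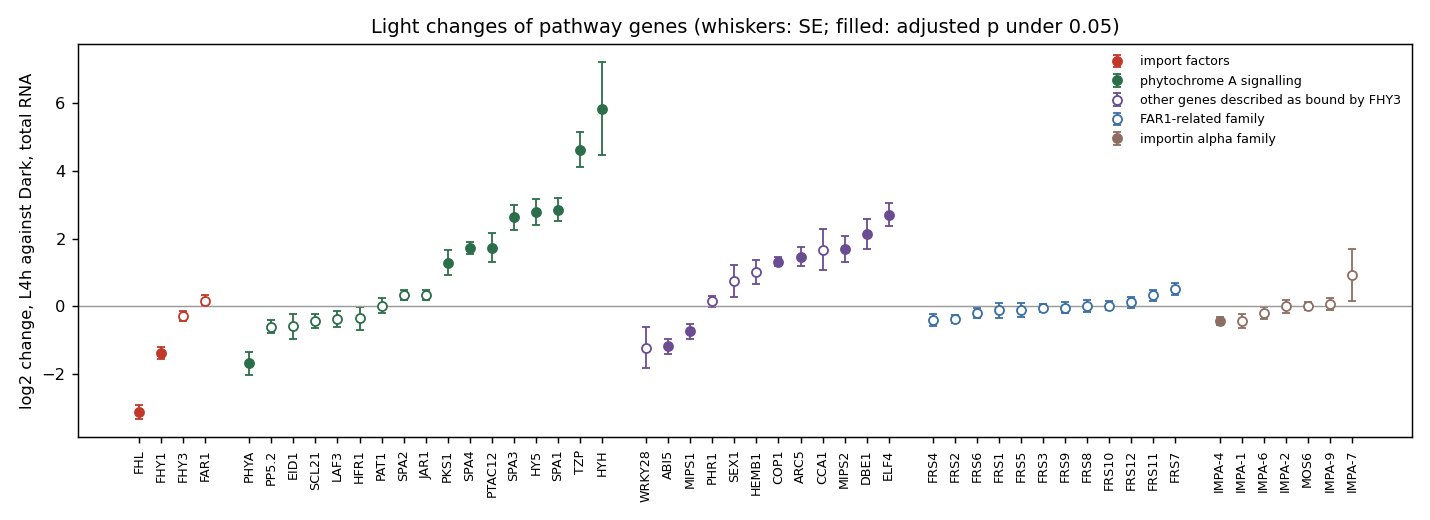
Log2 change in L4h against Dark in total RNA (y axis, whiskers are the SE) for the 4 genes and 4 lists of related genes (x axis), filled where the adjusted p was under 0.05. FHL and PHYA have the lowest filled values, at -3.11 and -1.68, and HYH the highest, at 5.85.

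The profiles of the 4 genes over the 15 libraries can be set beside those of 14980 genes with a mean of at least 5 CPM, as Pearson correlations of log2 CPM that describe libraries sharing condition, kind of RNA and replicate number. FHY1 was most like HB-2, a homeodomain-leucine zipper gene (0.963), MUB5 (0.963) and AT5G02580 (0.957). HB-2 averaged 7.31 ± 1.99 CPM in L4h and 73.1 ± 3.41 CPM in Dark total RNA. FHL was most like AT3G54830 (0.986), the auxin F-box gene GRH1 (0.983) and PGSIP6 (0.977). AT3G54830 averaged 6.60 ± 0.931 CPM in L4h and 55.9 ± 11.6 CPM in Dark total RNA. FHY3 was most like the bromodomain gene GTE4 (0.996), VCL1 (0.993) and MOS1 (0.992). These followed the parting by kind of RNA: GTE4 averaged 38.2 ± 12.7 CPM in polysome-bound and 86.7 ± 14.3 CPM in total RNA of L4h. FAR1 was most like CHUP1, a gene of chloroplast positioning (0.954), AT1G10490 (0.947) and AT2G03640 (0.946). Among the 4 themselves, the correlation was 0.79 for FHY1 with FHL and 0.53 for FHY3 with FAR1, and the other pairs ran from -0.52 for FHY1 with FAR1 to 0.39 for FHL with FHY3.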

How the data were processed

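RNA-seq of 15 libraries, 3 per group, was analysed from the tables the authors deposited, 1 per library. Each lists 33323 genes with a gene length, a read number and an RPKM value. The deposited read numbers are estimated counts: 84.4% to 87.2% of a library's genes had whole values (tolerance 1e-06), and the others were rounded here. RPKM was computed by the authors per listed length and per a library total 0.981% to 4.34% larger than the sum of the listed reads. The build is TAIR10 per the submitters' processing notes. Aligner, counting tool, kit and strand are not given in the sources used here. The series text speaks of 2 replicates, where the labels number 3.

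Counts were fitted with edgeR 4.0.16 in R 4.3.3 (quasi-likelihood F test, TMM scaling, a minimum count of 10 in filterByExpr, Benjamini-Hochberg adjustment over all genes tested, threshold 0.05). The 9 total RNA libraries were fitted together, the 6 polysome-bound ones for light, and 12 for polysome-bound against total RNA and the interaction. The SE is the absolute log2 change divided by the square root of F. CPM of single libraries was scaled over all 15. Each fit was tested on simulated data. Symbols, positions and promoters came from RefSeq TAIR10.1, whose nuclear chromosomes carry the TAIR10 sequence. Ratios were tested by exact permutation. Counting error is the only error that depth covers.

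The 4 genes and the lists were chosen with earlier results of these data known. Named genes are the 4, PHYA, HY5, the 3 most alike in profile to each of the 4, and from each list the 3 with the largest called change in L4h against Dark in total RNA without overlap. Same-numbered libraries counted as pairs if their deviations from the group means had a correlation over 0.1 at each of the 3 numbers. L4h and Dark met this in total RNA (0.387 to 0.596) and in polysome-bound RNA (0.563 to 0.695). So did the 2 kinds of RNA in L4h (0.124 to 0.384) and in Dark (0.279 to 0.473), while D4h did not. Against Dark, D4h gave 0.154, 0.0804 and 0.106. The deviations of a group's 3 libraries sum to 0, so a shared outlying number can raise all 3 correlations. The rule therefore does not establish that same-numbered libraries were paired. The alternatives tried were RLE scaling, DESeq2 1.42.0, a fit with no filter, limma 3.58.1 on log2(RPKM + 1) and log2(RPKM + 0.1), all 15 libraries in 1 fit, a replicate block, libraries left out, and D4h replicates 2 and 3 as 1 library.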

Additional observations from a re-analysis of the deposited data

How the results depend on the processing

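The fall of FHY1 and FHL in L4h against Dark and against D4h in total RNA kept its direction and its call under every alternative run. Leaving out 1 library at a time moved the log2 change of FHY1 between -1.44 and -1.27 against Dark and that of FHL between -3.19 and -3.02. In polysome-bound RNA the range was -1.35 to -1.01 for FHY1 (adjusted p 0.041 to 0.11) and -3.49 to -2.44 for FHL (0.027 to 0.11). In these comparisons FHY3 passed only with all libraries numbered 1 left out, at -0.24 against Dark (adjusted p = 0.034) and -0.26 against D4h (0.029).

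The share of all genes called moved more than the 4 genes did. With libraries numbered 1 left out it was 48.3% in L4h against Dark, 47.0% in L4h against D4h, 16.5% in polysome-bound RNA and 0.00906% in the interaction. DESeq2 gave 24.1% in L4h against D4h, 19.1% in polysome-bound RNA, 0.0690% in D4h against Dark and 0.0137% in the interaction, where limma on log2(RPKM + 0.1) gave 0.00456%. The replicate block gave 38.8% in L4h against Dark and 6.23% in L4h against D4h, where the correlation rule for pairs was not met. It gave 43.2% in polysome-bound RNA, and, between the kinds of RNA, 32.9% in L4h and 32.4% in Dark. A block within each kind of RNA gave 49.5% in L4h and 49.3% in Dark there. All 15 libraries in 1 fit gave 16.9% in polysome-bound RNA, and D4h replicates 2 and 3 as 1 library 5.93% in L4h against D4h. Without single libraries the share ran from 8.05% to 21.1% in L4h against Dark, 5.93% to 25.5% in L4h against D4h, 3.53% to 12.4% in polysome-bound RNA, and, between the kinds of RNA, 11.2% to 19.1% in L4h and 10.3% to 19.6% in Dark. It ran from 0.0% to 0.00449% in the interaction.

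Polysome-bound against total RNA, FHY1 in L4h gave 0.40 and 0.41 with limma on log2(RPKM + 1) and log2(RPKM + 0.1), no longer past the threshold, and 0.58 to 0.79 without single libraries. In Dark it ran from 0.32 to 0.66, past the threshold without Dark polysome replicate 3. The block within each kind of RNA called FHL (-0.53) and FAR1 (-0.47) in Dark and FAR1 (-0.32) in L4h, and the simple replicate block called FAR1 in Dark (-0.47). The block changed no other call of the 4 genes. P-values of the block within each kind of RNA do not measure the spread between replicate numbers. An exact test of the ratios over pairs of libraries, chosen after seeing the data, left each log2 difference as it was and gave p = 0.25 in both kinds of RNA. Without single libraries FHL ran from -0.74 to 0.14 in L4h and from -0.87 to 0.0145 in Dark. The cause of these shifts was not tested.

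Changes near 0 turned sign. In D4h against Dark, FHY1 gave -0.0223 without libraries numbered 1. FHL gave 0.00033 without a filter, 0.0153 and 0.0157 with limma, 0.0771 without libraries numbered 1, and -0.13 to 0.17 without single libraries. FHY3 gave 0.0137 without libraries numbered 1, and FAR1 0.00344, 0.00290 and 0.00318 with limma, and -0.11 to 0.03 without single libraries. The log2 ratio of FHY1 to FHL ran from -0.16 to 0.41 there. In the interaction, without single libraries, FHL ran from -0.40 to 0.67 and FHY3 from -0.12 to 0.20. Depth limits FHL most, with 54 reads in its lowest library.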
